A study of Homo sapiens with 4 samples.

Results

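The genes of the nuclear RNA polymerases I, II and III were compared between untreated LSTGFBR2 cells and the same cells given TGF-β1. They were taken as the probe sets whose platform annotation names exactly 1 gene, with a symbol made of POLR1, POLR2 or POLR3 and a letter, or a letter and a digit. This gave 71 probe sets for 30 genes of the 19775 genes read by the array, and each gene was represented by its brightest probe set, that is, the one with the highest mean over the 4 arrays. By the known make-up of the enzymes, 6 of the genes belong to Pol I only, 2 are shared by Pol I and Pol III, 8 belong to Pol III only, 9 are counted with Pol II only and 5 are shared by all 3 enzymes.

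LSTGFBR2 is a colon cancer epithelial line in which the type II TGF-β receptor, TGFBR2, is expressed from a construct switched on by doxycycline (the T-Rex system). The untreated group held 2 arrays of this line with no TGF-β1. The TGF-β1 group held 2 arrays of the line exposed to 5 ng/ml recombinant human TGF-β1 for 16 hours. The labels describe doxycycline for the protocol as a whole and do not say which arrays received it, nor whether replicate arrays stem from separate cultures. The p-values then measure only how far these arrays lie apart, which may be technical. Values are log2 RMA values of HG-U133 Plus 2.0 arrays, and a difference of 1 is a 2-fold change.

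RNA polymerase I transcribes the large ribosomal RNA precursor in the nucleolus. RNA polymerase II transcribes messenger RNA, and RNA polymerase III makes transfer RNA, the 5S ribosomal RNA and other small RNAs. The enzymes share a core of small subunits, use related large subunits, and differ in further subunits that serve as built-in initiation and elongation factors. Output of Pol I and Pol III is tied to cell growth, because together they supply ribosomes and transfer RNA.

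Across the arrays the values ran from 2.48 to 15.34, with array medians of 6.57 to 6.61. The TGFBR2 probe set used for that gene was 39.9-fold higher after TGF-β1, while its other probe set differed by 0.03 on the log2 scale. The groups therefore differ in that receptor signal as well as in TGF-β1, and the part of either in the results below cannot be told apart. All 10 colon epithelial markers examined, among them EPCAM and KRT18, had a mean above the array medians, and their log2 values summed to 111.6 to 112.9 in untreated and 110.6 to 112.1 in TGF-β1 arrays. Of these 10, limma called CDX2, an intestinal transcription factor, lower (log2 fold change -0.73, adjusted p = 0.0327) and 0 higher. CDX1 had both TGF-β1 arrays below both untreated ones (-0.49, adjusted p = 0.284) and CDH1, which encodes E-cadherin, both above (0.56, adjusted p = 0.108), and neither passed. The part of these marker differences in the results below was not tested. Of 5 fibroblast markers 3 had a mean above the array medians, as did 1 of 3 endothelial and 1 of 3 leukocyte markers. In each of these lists limma called 0 lower and 0 higher. The fibroblast list summed to log2 values of 32.4 to 33.2 in untreated and 32.2 to 32.3 in TGF-β1 arrays, the endothelial list to 18.4 in both untreated arrays and 18.6 to 18.7 in TGF-β1 arrays, and the leukocyte list to 17.4 to 17.6 and 16.9 to 17.7. The defining leukocyte marker PTPRC had values of 4.5 to 4.75. Of the 19775 genes tested with limma, 291 were called lower and 369 higher at a Benjamini-Hochberg adjusted p under 0.05.

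Several subunit genes of Pol I and Pol III fell in the TGF-β1 arrays, and no Pol II subunit gene passed the test. Of the 30 genes, 6 fell, 0 rose and 24 did not pass, against 1.47% of all genes called lower, 1.87% called higher and 3.34% called in either direction by limma. The 6 were POLR1A, POLR1B and POLR1E of Pol I, POLR1C of the pair that Pol I and Pol III share, and POLR3G and POLR3K of Pol III. The unadjusted p was under 0.05 for 14 lower members and 0 higher ones, against 8.54% and 8.18% of all genes. Called genes were more frequent among bright genes: 2.85% of the 7234 genes with a mean of 9 or more, a level chosen after the values were seen, were called lower, and the median of the members' means was 10.53, against 7.65 for all genes. The calls depended on having all arrays. Without untreated replicate 1, untreated replicate 2, TGF-β1 replicate 1 or TGF-β1 replicate 2, limma called 0 of the 30 members lower, and 6, 12, 21 or 19 of all genes. In those 4 fits the unadjusted p was under 0.05 for 9 to 12 lower members, the 6 among them each time, and for 0 or 1 higher member, with log2 fold changes of the 6 between -1.08 and -0.54 and adjusted p from 0.0703 to 0.234. By the rule of the series' design text, an unadjusted p under 0.05 with a 2-fold change, 0 members were called in either direction.

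**Figure D1:**
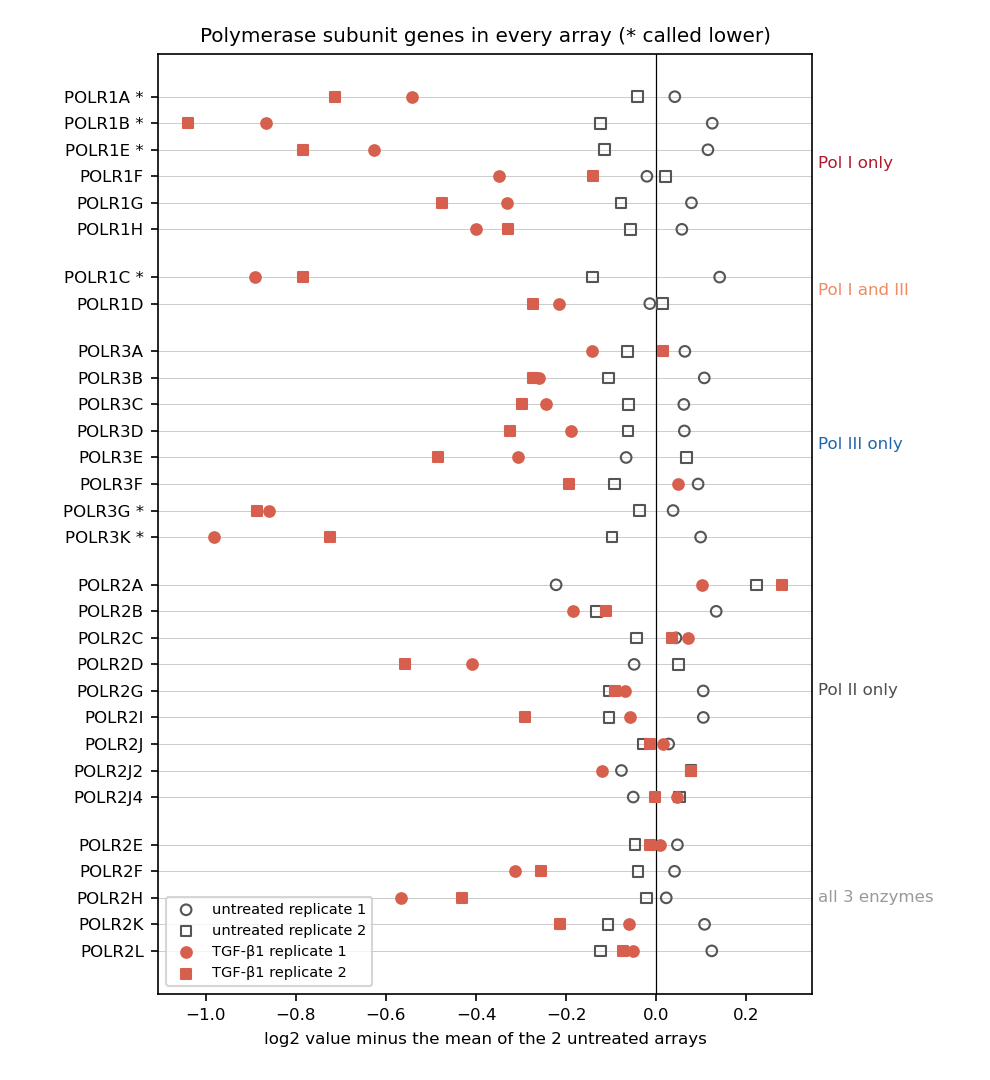
The log2 value of each of the 30 subunit genes in each of the 4 arrays, minus the mean of that gene's 2 untreated arrays. Open symbols are untreated arrays, filled symbols TGF-β1 arrays, circles replicate 1 and squares replicate 2, and an asterisk marks the 6 genes called lower. Both filled symbols lie left of both open ones for all 6 Pol I genes and for 1 of the 9 Pol II genes.

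The classes differed in how many members had both TGF-β1 arrays below both untreated arrays. All 6 Pol I genes did, as did both genes shared by Pol I and Pol III, 6 of 8 Pol III genes, 2 of 5 genes shared by all 3 enzymes and 1 of 9 Pol II genes, against 23% of all genes. Among all genes, 21.4% had both TGF-β1 arrays above both untreated ones, and 0 of the 30 members did. The median log2 fold change was -0.52 for Pol I, -0.54 for the shared Pol I and III pair, -0.27 for Pol III, -0.14 for the genes shared by all 3 enzymes and -0.02 for Pol II. Over all genes it was -0.0036. The Pol II count includes POLR2J2, a copy of POLR2J, and POLR2J4, a transcribed pseudogene related to it. Without these, the median of the other 7 Pol II genes was -0.08. Of those 7, 4 had a log2 fold change below 0 and 1 had both TGF-β1 arrays below both untreated ones. Of the 30 members 26 had a log2 fold change below 0, against 51% of all genes, and the other 4 were Pol II genes. These medians are descriptions, and the difference between the enzymes was not tested.

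The pattern was alike in both TGF-β1 arrays. Relative to the untreated mean of each gene, the 6 Pol I genes averaged -0.52 and -0.58 in the TGF-β1 arrays, while the untreated arrays lay at 0.07 and -0.07. The 8 Pol III genes averaged -0.37 and -0.40, with untreated arrays at 0.06 and -0.06. The 9 Pol II genes averaged -0.07 and -0.08, with untreated arrays at 0.0015 and -0.0015. Within each array, the relative Pol I average thus lay 0.45 and 0.50 below the relative Pol II average in the TGF-β1 arrays. In the untreated arrays it lay 0.06 above and 0.06 below. The 2 untreated values mirror each other by construction, because each gene was set against its untreated mean. Adding a constant to an array would leave the within-array differences as they are. A shift that varies with brightness need not, and it was not tested. The median level was 10.37 for the Pol I genes and 11.34 for the Pol II genes.

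The 2 catalytic subunits of Pol I were among the genes that fell. POLR1A, the largest subunit, read 9.42 and 9.34 without TGF-β1 and 8.84 and 8.67 with it. The groups lay further apart than either pair of replicates, with a log2 fold change of -0.63 ± 0.110 (SE, 2 arrays per group, limma adjusted p = 0.0428). POLR1B, the second largest subunit, which forms the active centre with POLR1A, had the largest fall of the 30 genes. It read 11.24 and 11.00 untreated and 10.25 and 10.08 after TGF-β1, which is 1.94-fold lower (log2 fold change -0.95 ± 0.129 SE, limma adjusted p = 0.0213). The calls of POLR1A and, below, POLR1E did not hold with arrays centred on 8 housekeeping genes (limma adjusted p = 0.0503 and 0.0518). POLR1B ranked 89 from the bottom among the fold changes of all 19775 genes.

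Pol I also carries a heterodimer of POLR1E (PAF53) and POLR1G (PAF49), which is related to a general factor of Pol II. POLR1E read 9.66 and 9.43 untreated and 8.92 and 8.76 after TGF-β1, a fall of 1.63-fold (log2 fold change -0.70 ± 0.124 SE, limma adjusted p = 0.0435). Its partner POLR1G read 10.70 and 10.54 against 10.29 and 10.14. The groups did not overlap, but the change of -0.40 ± 0.113 (SE) did not pass (limma adjusted p = 0.136). POLR1H, the zinc ribbon subunit that takes part in RNA cleavage, read 11.19 and 11.08 against 10.74 and 10.81, and did not pass either (-0.37 ± 0.103 SE, limma adjusted p = 0.136). POLR1F, the stalk subunit, had the smallest difference of the 6, from 10.43 and 10.47 to 10.10 and 10.31 (-0.24 ± 0.113 SE, limma adjusted p = 0.366).

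POLR1C and POLR1D form the assembly platform on which both Pol I and Pol III are built. POLR1C read 10.79 and 10.51 untreated and 9.76 and 9.87 after TGF-β1, 1.79-fold lower (log2 fold change -0.84 ± 0.129 SE, limma adjusted p = 0.0313). POLR1D read 11.93 and 11.96 against 11.73 and 11.68. Its groups did not overlap, and its change of -0.24 ± 0.097 (SE) did not pass (limma adjusted p = 0.284). The 2 other probe sets of POLR1D, dimmer than the one used, gave -0.39 and -0.44. The Pol II counterparts of this platform, POLR2C and POLR2J, had log2 fold changes of 0.05 and 0.00.

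In Pol III, both genes that fell encode small subunits. POLR3G belongs to the trimer that opens the promoter and contacts the initiation factor TFIIIB, and it is known for high expression in stem and tumour cells. It read 9.69 and 9.62 untreated and 8.80 and 8.77 after TGF-β1, 1.83-fold lower, with the lowest adjusted p of the 30 genes (log2 fold change -0.87 ± 0.098 SE, limma adjusted p = 0.0132). The paralogue that can take its place in the enzyme, POLR3GL, is outside the symbol rule. It read 9.67 and 9.45 untreated and 9.79 and 9.61 after TGF-β1, which overlap (log2 fold change 0.14 ± 0.125 SE, limma adjusted p = 0.680). Its 95% interval, from -0.16 to 0.45, does not reach that of POLR3G, from -1.11 to -0.63. The difference between the paralogues was not tested.

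POLR3K, the zinc ribbon subunit of Pol III, is needed for RNA cleavage and termination. It read 11.46 and 11.26 untreated and 10.38 and 10.64 after TGF-β1, 1.81-fold lower (log2 fold change -0.85 ± 0.133 SE, limma adjusted p = 0.0323). The 6 other Pol III genes did not pass. POLR3E, which pairs with POLR3D in a heterodimer, had the largest difference among them, from 10.28 and 10.41 to 10.04 and 9.86 (-0.40 ± 0.114 SE, limma adjusted p = 0.145). POLR3B, POLR3C and POLR3D had log2 fold changes between -0.27 and -0.26, with both TGF-β1 arrays below both untreated ones in each. In POLR3A, the largest subunit, and POLR3F, a partner of POLR3G in the trimer, the groups overlapped (-0.06 and -0.07). CRCP, a Pol III stalk subunit outside the symbol rule, read 8.90 and 8.61 against 8.60 and 8.04, a change of -0.43 ± 0.204 (SE) that did not pass (limma adjusted p = 0.376).

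**Figure D2:**
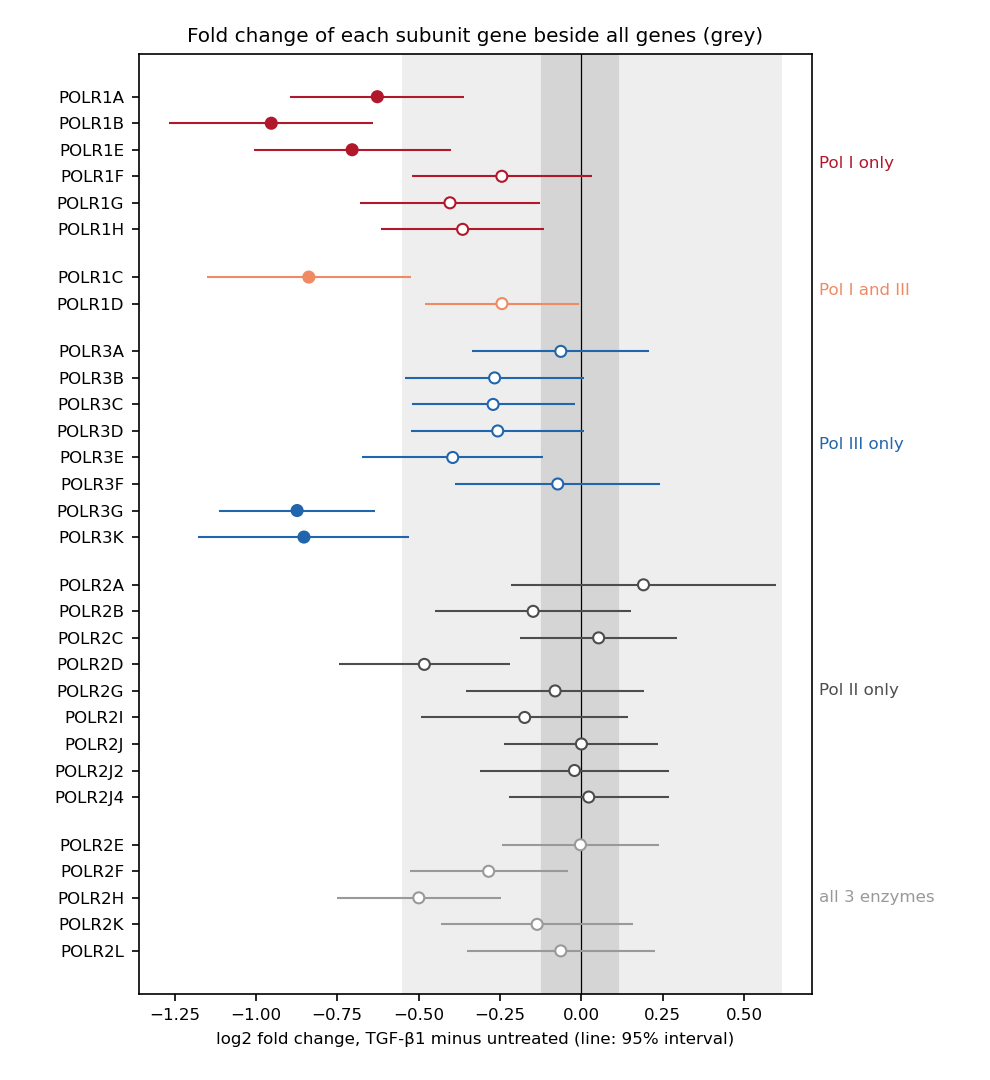
Log2 fold change of each subunit gene, TGF-β1 minus untreated, with its 95% interval from limma. Filled points are the 6 genes called lower. The grey bands hold the middle 50% (dark, -0.12 to 0.11) and 95% (light, -0.55 to 0.61) of all 19775 genes, and 6 members lie left of the light band.

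None of the 9 Pol II genes passed by limma, and at an unadjusted p under 0.05 1 was lower and 0 higher. That gene was POLR2D, which forms the stalk of Pol II with POLR2G. It read 10.11 and 10.21 untreated and 9.75 and 9.61 after TGF-β1 (log2 fold change -0.48 ± 0.108 SE, limma adjusted p = 0.0776). Its dimmer probe set gave -0.75, and the mean of both probe sets passed (limma adjusted p = 0.0346). POLR2G itself read 12.70 and 12.49 against 12.53 and 12.50, with overlapping groups. POLR2A, which carries the C-terminal repeat domain, was the 1 catalytic subunit with a positive difference. It read 10.80 and 11.24 against 11.12 and 11.30, and its untreated arrays were further apart than the group means (0.19 ± 0.167 SE, limma adjusted p = 0.683). Without untreated replicate 1 its log2 fold change was -0.03. POLR2B, the second largest subunit, had a change of -0.15 ± 0.124 (SE), with a 95% interval of -0.45 to 0.15 that does not reach the estimate for POLR1B.

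The zinc ribbon subunit of Pol II, POLR2I, had a log2 fold change of -0.17 with overlapping groups, against -0.37 for POLR1H and -0.85 for POLR3K at the same place in the sister enzymes. POLR2J read 11.78 and 11.73 against 11.77 and 11.74. POLR2J2, a copy of POLR2J, and POLR2J4, a transcribed pseudogene related to it, were the dimmest members, with means of 7.72 and 7.76. Their log2 fold changes were -0.02 and 0.02. These genes are near-identical, so their probe sets may not tell them apart.

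The 5 genes shared by all 3 enzymes did not pass by limma, and at an unadjusted p under 0.05 2 were lower and 0 higher. POLR2H read 12.16 and 12.12 untreated and 11.57 and 11.71 after TGF-β1, a difference several times the gap between replicates (log2 fold change -0.50 ± 0.104 SE, limma adjusted p = 0.0642). It passed when genes with a mean under 7 were left out (limma adjusted p = 0.0415), with an intensity trend (0.0381) and where probe sets of a gene were averaged (0.0498). POLR2F read 11.56 and 11.47 against 11.20 and 11.26 (-0.28 ± 0.10 SE, limma adjusted p = 0.222). In POLR2E, POLR2K and POLR2L the groups overlapped, with log2 fold changes of -0.0030, -0.14 and -0.06. The shared genes were the brighter ones, with means from 11.37 to 13.33, against 8.89 to 10.93 for Pol III.

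The other probe sets of the same genes were read on the same arrays. The 6 called genes had 11 further probe sets. All 11 had a negative log2 fold change, from -0.92 to -0.30, with non-overlapping groups in 10. These genes were chosen by their calls on the same arrays, so this count is no independent support. Of the 41 further probe sets of all members, 36 had a negative log2 fold change. Both TGF-β1 arrays lay below both untreated ones in 27 of the 41 and above in 2, against 21.6% below among all probe sets. In the fit over all 54675 probe sets, 6 member probe sets were called lower, against 0.304% of all. These were 2 each of POLR1B, POLR1E and POLR3G. The probe sets used for POLR1A, POLR1C, POLR1E and POLR3K did not pass there (limma adjusted p = 0.0793, 0.0601, 0.0796 and 0.0622). For POLR1E the 2 that passed were dimmer probe sets not used for the gene, which gave -0.78 and -0.75, close to the -0.70 of the one used. For POLR1B the values ran from -0.95 to -0.30, the smallest at an _x_at probe set, a kind that can bind other transcripts. With the probe sets of a gene averaged, POLR3G and POLR3K did not pass (limma adjusted p = 0.0605 and 0.0574, log2 fold changes of -0.77 and -0.61). For POLR3K the other probe set gave -0.37 at a mean under the array medians. Of the 15 Pol I probe sets with a mean above the array medians, 15 were lower in both TGF-β1 arrays than in both untreated arrays. So were 5 of 5 of the Pol I and III pair and 9 of 12 of Pol III. The counts were 4 of 8 for the genes shared by all 3 enzymes and 4 of 15 for Pol II. Over all 54675 probe sets the share was 21.6%, but that includes dim ones, and the share among brighter ones was not computed. With dim member probe sets included, the counts were 17 of 19 for Pol I, 5 of 5 for the pair and 12 of 19 for Pol III. They were 4 of 9 for the genes shared by all 3 enzymes and 6 of 19 for Pol II.

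**Figure D3:**
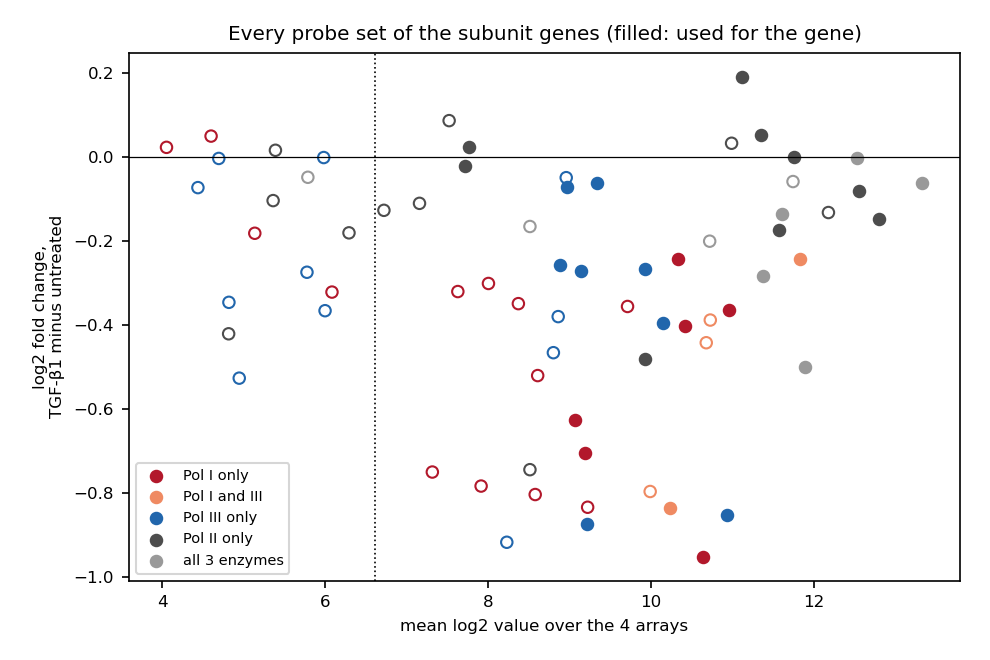
Every one of the 71 probe sets of the subunit genes, with its mean log2 value over the 4 arrays across and its log2 fold change up. Filled points were used for their gene, open points were not, and the dotted line is the highest array median, 6.61. To the right of it all 15 Pol I points (dark red) lie below 0.

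The start regions of the falling genes were set beside each other for letters they share. Promoter windows from RefSeq (GRCh38.p14) matched 22 of the 30 members, including the called genes POLR1A, POLR1B, POLR1C and POLR3K. The 250 bases before the start were searched on both strands for CCGGAAG, the core bound by ETS factors, CCAAT, the GC box GGGCGG, the E-box CACGTG bound by MYC and related factors, the SMAD element GTCTAGAC and the TATA sequence TATAAA. A gene with several windows was counted once, if any of them held the letters, for members and for all 27305 genes in the table alike. The ETS letters CCGGAAG were found in 7 of the 22 members and in 10.2% of all genes. Of these members POLR1B and POLR1C were called lower, and POLR2C, POLR2F, POLR2J2, POLR3A and POLR3C were not called. CCAAT was found in 5 members, of which only POLR3K was called, and in 37% of all genes. GGGCGG was found in 14 members, with 3 of the 4 called genes searched among them, and in 46.2% of all genes. CACGTG was present in POLR1G, POLR3A and POLR3C, and in 7.73% of all genes, and in 0 of the 4 called genes searched. TATAAA and GTCTAGAC were in 0 members, and in 13% and 0.231% of all genes. POLR1A, a called gene that was searched, held neither CCGGAAG nor CCAAT. The windows below are shown because they are the start regions of the 3 other called genes searched, which hold CCGGAAG or CCAAT. Capitals mark those letters on either strand, and GGGCGG is not marked. They run 5′ to 3′ in the direction of the gene, for POLR1B from chr2:112541786-112542035 (plus strand, the first of its 2 listed starts), for POLR1C from chr6:43516839-43517088 (plus strand) and for POLR3K from chr16:53609-53858 (minus strand).
POLR1B: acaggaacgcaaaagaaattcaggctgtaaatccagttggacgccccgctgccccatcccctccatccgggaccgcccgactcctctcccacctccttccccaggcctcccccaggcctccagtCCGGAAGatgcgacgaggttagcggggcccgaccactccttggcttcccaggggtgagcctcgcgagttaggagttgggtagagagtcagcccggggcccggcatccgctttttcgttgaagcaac
POLR1C: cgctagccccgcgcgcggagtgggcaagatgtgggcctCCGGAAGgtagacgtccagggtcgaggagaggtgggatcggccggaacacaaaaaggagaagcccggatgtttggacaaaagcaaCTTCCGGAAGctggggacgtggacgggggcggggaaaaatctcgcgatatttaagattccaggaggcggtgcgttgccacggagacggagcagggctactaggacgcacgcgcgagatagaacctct
POLR3K: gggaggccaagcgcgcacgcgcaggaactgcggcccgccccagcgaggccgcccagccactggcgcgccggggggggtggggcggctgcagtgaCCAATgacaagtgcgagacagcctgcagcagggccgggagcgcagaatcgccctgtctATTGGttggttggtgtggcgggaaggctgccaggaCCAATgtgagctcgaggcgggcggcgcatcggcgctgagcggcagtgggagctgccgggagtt
POLR1B holds 1 CCGGAAG in this window and POLR1C holds 3, of which 2 overlap on opposite strands. POLR3K holds no CCGGAAG and 3 CCAAT. A match of letters is a description of the window and says nothing of what binds there.

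Factors that work with the polymerases were examined as lists. Of 7 Pol I factors, 1 fell and 0 rose, with a list median of -0.20. The list is drawn as initiation factors but also holds TTF1, a termination factor (log2 fold change -0.07). The gene that fell was TAF1D of the SL1 promoter factor, from 10.00 and 9.99 to 9.46 and 9.47 (log2 fold change -0.53 ± 0.095 SE, limma adjusted p = 0.0452). RRN3, the factor that makes Pol I competent to start, and UBTF, the HMG-box factor of the ribosomal DNA, had log2 fold changes of -0.20 and 0.05. Each of the 4 fits on 3 arrays left TAF1D above the threshold (limma adjusted p between 0.179 and 0.230). Of 16 Pol III factors 0 passed by limma, and at an unadjusted p under 0.05 2 were lower and 0 higher. SNAPC1, part of the factor for small nuclear RNA genes, had the largest difference (-0.54 ± 0.138 SE, limma adjusted p = 0.105). MAF1, a repressor of Pol III, had a log2 fold change of -0.02, and the list median was -0.04.

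Of 17 Pol II general factors 0 passed, and at an unadjusted p under 0.05 1 was lower and 0 higher. This was GTF2H3 of TFIIH (-0.43 ± 0.162 SE, limma adjusted p = 0.254). The median of the list was -0.11. Of 18 pausing and elongation factors 0 passed, and the unadjusted p was under 0.05 for 0 lower and 1 higher gene. This was the elongation factor gene ELL2, from 8.97 and 8.49 to 9.74 and 9.41 (0.84 ± 0.193 SE, limma adjusted p = 0.0828). The median of the list was 0.04. Of 12 assembly factors, which build polymerases in the cytoplasm before import, 0 passed by limma. The unadjusted p was under 0.05 for 4 lower and 0 higher ones. The largest difference was that of RUVBL1, an ATPase of the R2TP chaperone complex (-0.47 ± 0.151 SE, limma adjusted p = 0.178). The median of the list was -0.12. POLRMT, the mitochondrial RNA polymerase gene, read 10.18 and 10.36 against 10.22 and 10.05 (log2 fold change -0.14, limma adjusted p = 0.680).

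Some nucleolar genes of ribosome biogenesis also fell. Of 15 tested, 7 fell, 0 rose and 8 did not pass, against 1.47% of all genes and 2.85% of the genes with a mean of 9 or more called lower. Their median log2 fold change was -0.54, and that of the Pol I genes -0.52. All 15 had both TGF-β1 arrays below both untreated ones, against 23% of all genes. NOP16, a nucleolar protein of the large ribosomal subunit pathway, was 1.95-fold lower, from 12.09 and 12.11 to 11.27 and 11.01. RRP9, a component of the U3 snoRNP that processes ribosomal RNA, was 1.91-fold lower, and NOLC1, a nucleolar phosphoprotein, 1.73-fold lower (limma adjusted p = 0.0198 and 0.0252). NPM1, an abundant nucleolar chaperone, had the smallest difference, -0.13 ± 0.099 (SE, limma adjusted p = 0.623). With untreated replicate 1, untreated replicate 2, TGF-β1 replicate 1 or TGF-β1 replicate 2 left out, limma called 0 of the 15, with 11 or 12 lower at an unadjusted p under 0.05.

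**Figure D4:**
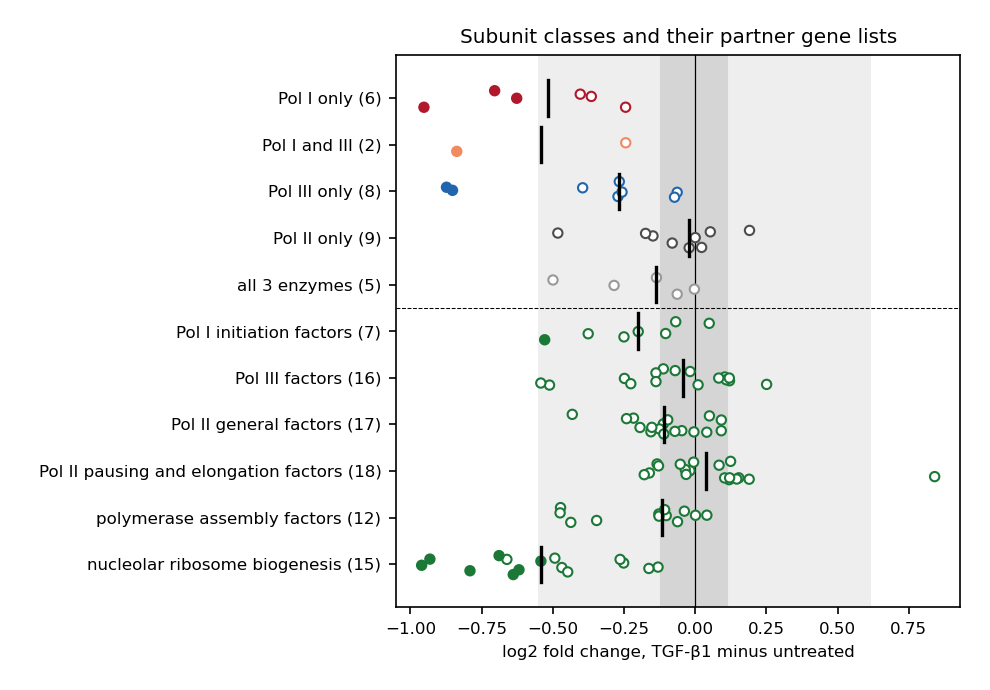
Log2 fold changes, TGF-β1 minus untreated, of the subunit genes by class (above the dashed line) and of 6 lists of partner genes (below it), 1 point per gene, with the number of genes in brackets. Filled points were called lower, black bars are medians, and grey bands are the middle 50% and 95% of all genes. The medians of Pol I (-0.52) and of the nucleolar list (-0.54) lie near the left edge of the light band. That of Pol II (-0.02, or -0.08 without POLR2J2 and POLR2J4, not drawn) lies within the dark band.

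Set side by side by position in the enzyme, the largest subunits had log2 fold changes of -0.63 in Pol I, 0.19 in Pol II and -0.06 in Pol III. The second largest had -0.95, -0.15 and -0.27. The zinc ribbon subunits had -0.37, -0.17 and -0.85. The stalk subunits had -0.24 in Pol I, -0.48 and -0.08 in Pol II and -0.43 for the Pol III subunit gene CRCP. Within Pol III, the subunits of the trimer differed, with -0.87 for POLR3G, -0.27 for POLR3C and -0.07 for POLR3F. The log2 fold changes ranged from -0.95 to -0.24 in the 6 Pol I genes, from -0.87 to -0.06 in the 8 Pol III genes and from -0.48 to 0.19 in the 9 Pol II genes.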

How the data were processed

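RNA of 4 samples of 1 cell line, 2 untreated and 2 given TGF-β1, was read on 1-colour HG-U133 Plus 2.0 arrays, and samples were grouped by their titles. The deposited log2 values are those of the authors, made by RMA (background correction, quantile normalization, summarization per probe set), per the series' design text and the submitters' processing notes. Its version is not given here, and the log2 scale was judged from the range of values. RMA equalizes the arrays' distributions, which hides any shift that most transcripts share, and the polymerase changes are relative to the other genes.

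Of 54675 probe sets, 41097 have 1 gene symbol in the platform annotation, 1801 several and 11777 none here. Current RefSeq symbols were looked up by Entrez ID for 41043, which changed 0 member symbols, and the brightest probe set was kept for each of 19775 genes. The TGF-β1 minus untreated difference was fitted in limma 3.58.1 under R 4.3.3 (lmFit, eBayes, two-sided, 6.13 degrees of freedom, no covariate or filter) with Benjamini-Hochberg adjustment over all genes. An exact permutation test of 2 against 2 cannot go below p = 0.333 and was not used. The fit was run on simulated data whose noise followed the fit's own assumptions and was independent between arrays. That checks the code and not the calls made here. Precision is limited by there being 4 arrays.

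The members and gene lists were chosen with earlier results of these data known, so the lists support nothing independently. Values in every array are given for each called member and for the 2 members of each class with the largest absolute log2 fold change, and otherwise ranges and counts with further members by role. From each list up to 3 called genes with the largest change are named, or else the 1 with the largest difference, and other genes named from the lists were chosen for their role or after their values were seen. The list of subunits under other symbols held POLR1F, POLR1G and POLR1H, which are members, and CRCP, POLR3GL and POLRMT, of which limma called 0 (0 also at an unadjusted p under 0.05). Alternatives covered filters, an intensity trend, centring, the choice of probe sets, a replicate block, leaving out each array, and other thresholds.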

Additional observations from a re-analysis of the deposited data

How the results depend on the processing

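The 6 called members kept a negative log2 fold change under every alternative run, from -1.08 to -0.50, and all 6 stayed called with genes of mean under 5 or under 7 left out, with an intensity trend, with arrays centred on their medians and without _x_at probe sets. Members by updated symbol were the same 30 genes. With arrays centred on housekeeping genes 4 stayed called (1 of Pol I only, and TAF1D was lost, leaving 0 Pol I factors), and with probe sets averaged 4 did, joined by POLR2D and POLR2H (0 of Pol III only, 1 of Pol II only, 1 shared by all 3, 1 higher elongation factor, medians of -0.45 for Pol I and -0.081 for Pol II).

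Replicate numbers are shared by the groups, but the labels do not say that a number marks a shared culture or day. Deviations of same-numbered arrays from their group means correlated at 0.364 over all genes. With the replicate block 3 members were called lower, POLR1B, POLR1E and POLR3G (0 of the shared Pol I and III pair, 1 of Pol III only), with 0 Pol I factors and 1 higher elongation factor. POLR1A, POLR1C and POLR3K did not pass with the block (limma adjusted p = 0.0516, 0.0622 and 0.0679).

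A minimum mean of 7 gave 443 lower genes in place of 291, with 1 member shared by all 3 enzymes, 1 Pol III factor and 2 assembly factors lower. The intensity trend gave 1 shared by all 3, 2 assembly factors and 11 nucleolar genes. Over every probe set, 144 named probe sets were lower, with 0 of the Pol I and III pair, 0 Pol I factors and 3 nucleolar, and medians of -0.36, -0.44 and -0.10 for Pol I, the pair and Pol II. At an unadjusted p under 0.05, 1688 genes were lower and 1617 higher, and 14 members lower (5 Pol I, 2 of the pair, 4 Pol III, 1 Pol II, 2 shared by all 3), with 2 Pol I factors, 1 Pol II general factor, 2 Pol III factors, 4 assembly factors and 12 nucleolar genes lower and 1 elongation factor higher. A further 2-fold minimum gave 73 lower and 201 higher genes and 0 of the members, Pol I factors and nucleolar genes.

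With 1 array left out, limma called 6 to 21 genes lower and 64 to 85 higher, and 0 members, Pol I factors or nucleolar genes, with 1 residual degree of freedom left among the samples, the lone array being assumed to vary like the other group. The medians then ran from -0.59 to -0.46 for Pol I, -0.33 to -0.20 for Pol III and -0.24 to -0.029 for the genes shared by all 3. Members near 0 changed sign, none of them called. Centring on array medians turned POLR2J4 to -0.00031, averaging its probe sets to -0.099, and centring on housekeeping genes turned POLR2E to 0.0024. With 1 array left out, the values ran from -0.032 to 0.41 for POLR2A, -0.050 to 0.044 for POLR2E, -0.19 to 0.023 for POLR2G, -0.19 to 0.060 for POLR2L, -0.12 to 0.077 for POLR2J2, -0.029 to 0.074 for POLR2J4, -0.14 to 0.016 for POLR3A and -0.19 to 0.048 for POLR3F. The causes were not tested. RMA values carry no detection call, so levels near or under the array medians have uncertain change sizes.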

Other observations

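Probe sets that the annotation assigns to several genes were left out of the members. Of these, 4 name POLR2J with POLR2J2 and POLR2J3, in part with POLR2J4, and had log2 fold changes of 0.04, -0.08, -0.16 and 0.06, with overlapping groups in all 4. Another 4 name POLR2M, a Pol II associated protein, with neighbouring genes. Of these 4, the brightest read 10.77 and 10.87 untreated and 10.76 and 10.84 after TGF-β1. The next read 10.52 and 10.43 against 10.32 and 10.32, a log2 fold change of -0.16 with groups that did not overlap, and did not pass (limma adjusted p = 0.646 over all probe sets).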
